A study of Mus musculus with 4 samples.

Results

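The 10 genes described here encode transcription factors that direct the development, maturation and memory of natural killer (NK) cells, and they were chosen by name as Tbx21, Eomes, Zeb2, Prdm1, Nfil3, Id2, Tox, Runx3, Ikzf3 and Zbtb32, 10 of the 35798 named genes in the count table. All 10 were found, and all 10 passed the filter on low counts. RNA was sequenced in bulk from 2 wild-type and 2 TNFR2 KO libraries of Ly49H+ NK cells sorted from the spleen on D3.5 after infection with murine cytomegalovirus (MCMV). Wild-type donor cells carried CD45.1 and TNFR2 KO donor cells carried CD45.2, so genotype, CD45 allele and sort gate cannot be told apart, and both kinds of cell had been transferred together into NSG hosts, an immunodeficient strain without T, B or NK cells of its own that keeps its myeloid cells. Each library came from a pool of spleens of 3 hosts, and libraries of the same number in both genotypes shared a pool. The study was a single experiment with duplicate libraries, and whether the pools held different mice is not given, so p-values measure the spread between these libraries, which may be technical.

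The factors act in sequence. Nfil3 (also called E4BP4), Id2 and Tox are needed for NK cells to develop from progenitors, Id2 by holding E proteins away from DNA. Tbx21, which encodes T-bet, and Eomes are related T-box factors that establish NK identity and drive maturation, with Eomes separating conventional NK cells from type 1 innate lymphoid cells (ILC1). Zeb2 and Prdm1, which encodes Blimp-1, act late, in terminal maturation, as does Ikzf3, which encodes Aiolos. Runx3 supports maturation and the response to IL-15, and Zbtb32 is known for the proliferative burst of Ly49H+ NK cells during MCMV infection, where it counters Blimp-1.

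For Tbx21, Eomes, Zeb2 and Runx3 the bases that precede the gene's start are shown, because the T-box pair, the gene that went the other way and the gene that lies near Tnfrsf1b carry most of the results that follow. Each line gives the 250 bases before a start site of RefSeq on GRCm38.p6, read 5′ to 3′ on the gene's strand, with capitals for every match to 1 of 8 short motifs and lower case elsewhere.
Tbx21, chr11:97115332-97115581, minus strand: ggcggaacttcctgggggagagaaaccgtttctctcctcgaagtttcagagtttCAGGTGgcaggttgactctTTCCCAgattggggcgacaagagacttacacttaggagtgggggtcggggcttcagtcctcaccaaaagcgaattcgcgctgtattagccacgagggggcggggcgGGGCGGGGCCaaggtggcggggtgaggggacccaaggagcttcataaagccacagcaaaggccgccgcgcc
Eomes, chr9:118477939-118478188, plus strand: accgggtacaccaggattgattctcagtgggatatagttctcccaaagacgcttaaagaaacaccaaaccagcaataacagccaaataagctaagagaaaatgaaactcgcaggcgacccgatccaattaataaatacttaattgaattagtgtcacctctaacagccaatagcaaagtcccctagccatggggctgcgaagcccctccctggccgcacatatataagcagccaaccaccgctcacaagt
Zeb2, first of 4 start sites, chr2:45117443-45117692, minus strand: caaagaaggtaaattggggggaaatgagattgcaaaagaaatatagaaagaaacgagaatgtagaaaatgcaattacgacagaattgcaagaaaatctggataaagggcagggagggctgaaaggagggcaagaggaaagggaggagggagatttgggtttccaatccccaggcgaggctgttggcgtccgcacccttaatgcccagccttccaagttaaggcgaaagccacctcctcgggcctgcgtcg
Runx3, first of 2 start sites, chr4:135120395-135120644, plus strand: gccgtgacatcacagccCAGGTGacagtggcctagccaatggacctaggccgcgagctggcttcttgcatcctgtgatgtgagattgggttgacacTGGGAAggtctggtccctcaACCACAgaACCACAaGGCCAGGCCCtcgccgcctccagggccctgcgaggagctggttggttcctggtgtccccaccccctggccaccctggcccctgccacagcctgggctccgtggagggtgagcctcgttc

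The motifs were searched on both strands, and no 2 matches overlapped in these 4 windows. They were the T-box motif (TCACACC), the RUNX motif (TGTGGT), the ZEB E-box (CACCTG), the NFIL3 motif (TTANNTAA), the Ikaros motif (TGGGAA), the Blimp-1 motif (GAAAGTG), the kB motif bound by NF-kB (GGG and CC with 5 free bases between) and the STAT motif (TTCNNNGAA). In the Tbx21 window the ZEB E-box began 196 bases, the Ikaros motif 177 bases and the kB motif 71 bases before the start. The Eomes window and the first Zeb2 window held none of the 8. The first Runx3 window held the RUNX motif in 2 places, 134 and 126 bases before the start, together with a ZEB E-box, an Ikaros motif and a kB motif at 233, 154 and 119 bases. RefSeq windows were found for 8 of the 10 genes, all but Tox and Ikzf3. Over the start sites of these 8 genes, the kB motif occurred in 4 genes (Tbx21, Zeb2, Prdm1 and Runx3) and in 45.8% of the 32817 windows of all genes. The ZEB E-box and the Ikaros motif each occurred in the same 3 genes (Tbx21, Prdm1 and Runx3), against 17.2% and 21.6% of all windows, and the RUNX motif in Runx3 and Zbtb32, against 14.0%. A STAT motif was found for Zeb2 alone among the 8, against 7.01% of all windows. It lay at start sites 2 and 3, whose windows overlap and hold the same match. No window of the 8 genes held the T-box, NFIL3 or Blimp-1 letters, which 3.33%, 5.43% and 4.01% of all windows do. Genes with several start sites had more windows to match, so gene counts and window percentages differ in unit. A match is only a run of letters and shows no binding.

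The libraries held between 32713054 and 39543464 counts. Tnfrsf1b, the gene of TNFR2, measured 264.7 and 268.6 CPM (counts scaled by library size and TMM factors) with the gene intact and 55.1 and 58.6 CPM without it. Every 1 of 9 NK defining genes was present in every library, and Klra8, which encodes the Ly49H used for sorting, rose from 313.3 and 315.9 to 762.1 and 725.8 CPM. Markers of other cells also differed between the genotypes. The summed level of 25 macrophage or monocyte genes, led by Lyz2 and Cybb, was 2540.3 to 2552.2 CPM in the wild-type pair but 343.9 to 347.8 CPM in the KO pair. That of 13 neutrophil or granulocyte precursor genes, led by Mpo and S100a9, was 940.9 to 963.7 against 79.3 to 82.7 CPM. For 9 mast cell or basophil genes, led by Prss34 and Mcpt8, it was 1247.2 to 1251.4 against 27.1 to 28.3 CPM. For 10 dendritic cell or class II genes, led by Cd74 and H2-Ab1, it was 1762.3 to 1799.0 against 153.9 to 155.0 CPM. Erythroid genes, led by Hba-a1 and Hbb-bs, summed to 275.0 to 279.8 CPM against 57.0 to 60.6 CPM. T cell genes, led by Trbc2 and Cd4, were closer, at 1480.9 to 1488.2 against 1349.2 to 1381.8 CPM, and B cell genes, led by Cd22 and Cd79b, summed to 18.3 to 20.1 against 25.7 to 26.3 CPM. None of these genes was at 0 in all libraries.

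The comparison asks how loss of TNFR2 altered these factors in NK cells that expanded in the same hosts. With TMM scaling, which sets the bulk of genes equal, 8 of the 10 transcription factors were higher in TNFR2 KO NK cells at an adjusted p under 0.05 (quasi-likelihood test of edgeR, Benjamini-Hochberg adjusted over 13822 genes), Zeb2 alone was lower and Tox did not pass, whereas all 10 were lower when the libraries were instead scaled on NK receptor and effector genes. The 8 higher genes rose by 1.12 to 1.61 times and Zeb2 fell by 33.2%. Among all genes tested, 50.4% passed by the same rule, 24.2% higher and 26.2% lower, and among the 7188 genes whose mean reached 20 CPM 36.1% were higher and 22.8% lower. With scaling on NK genes 0.912% of all genes were higher and 87.8% lower. The values of the genotypes did not overlap for any member, 9 higher and Zeb2 lower, against 36.4% and 37.7% of all genes in those directions. With TMM scaling no member changed by more than 2-fold. The stricter rule, which adds an absolute log2-fold change over 1, passed 0 members, against 13.3% of all genes (1.56% higher and 11.8% lower). The DESeq2 test also passed 0. Scaled on NK genes, 1 member, Zeb2, passed this rule, as did 4288 of the 13822 genes tested. Under TMM 10 members had an unadjusted p under 0.05 in edgeR, as did 55.7% of all genes. The median log2-fold change of the 10 was 0.42, against -0.003 over all genes. In bulk RNA, fewer cells of a type and less RNA per cell cannot be told apart.

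**Figure D1:**
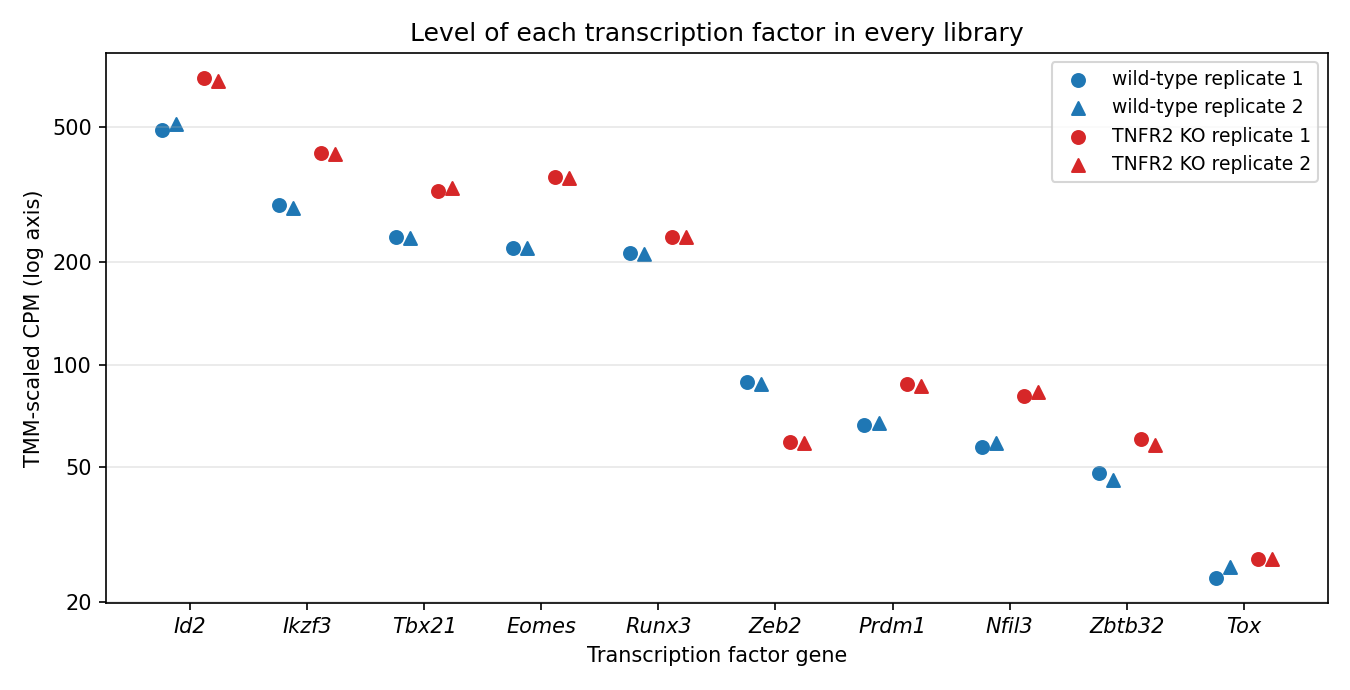
TMM-scaled CPM on a log axis for each of the 10 transcription factor genes in the 2 wild-type (blue) and 2 TNFR2 KO (red) libraries, circles for replicate 1 and triangles for replicate 2. The TNFR2 KO points lie above the wild-type points for every gene except Zeb2, an order that holds under TMM scaling and turns for all genes but Zeb2 with scaling on NK genes.

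The choice of scaling sets the sign of these differences. The 24 NK receptor and effector genes used for the second scaling, none of them a transcription factor, had a median log2-fold change of 0.83 under TMM, and 23 of them were higher in TNFR2 KO. Setting them equal moved the median of all genes to -0.84, and the members then ran from -0.14 for Eomes to -1.42 for Zeb2. Relative to the median of all genes the differences were the same under both scalings to within 0.01, so the directions given from here on are relative to that median. Put within each library, each factor's count against the mean log2 count of the 24 NK genes fell in TNFR2 KO, by 0.10 for Eomes, 0.27 for Ikzf3, 0.29 for Nfil3, 0.32 for Tbx21 and for Id2, 0.41 for Prdm1, 0.46 for Zbtb32, 0.62 for Runx3, 0.65 for Tox and 1.37 for Zeb2 on the log2 scale. The values of the genotypes did not overlap for any of the 10, which was also so, in the same direction, for 91.9% of all genes tested (1.97% in the other direction), and 2 against 2 libraries cannot reach a two-sided exact permutation p under 0.333. Apart from Zeb2, and from Tox, which did not pass, the factors thus stood higher relative to genes in general, and all 10, like most genes tested, stood lower relative to these NK genes.

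**Figure D2:**
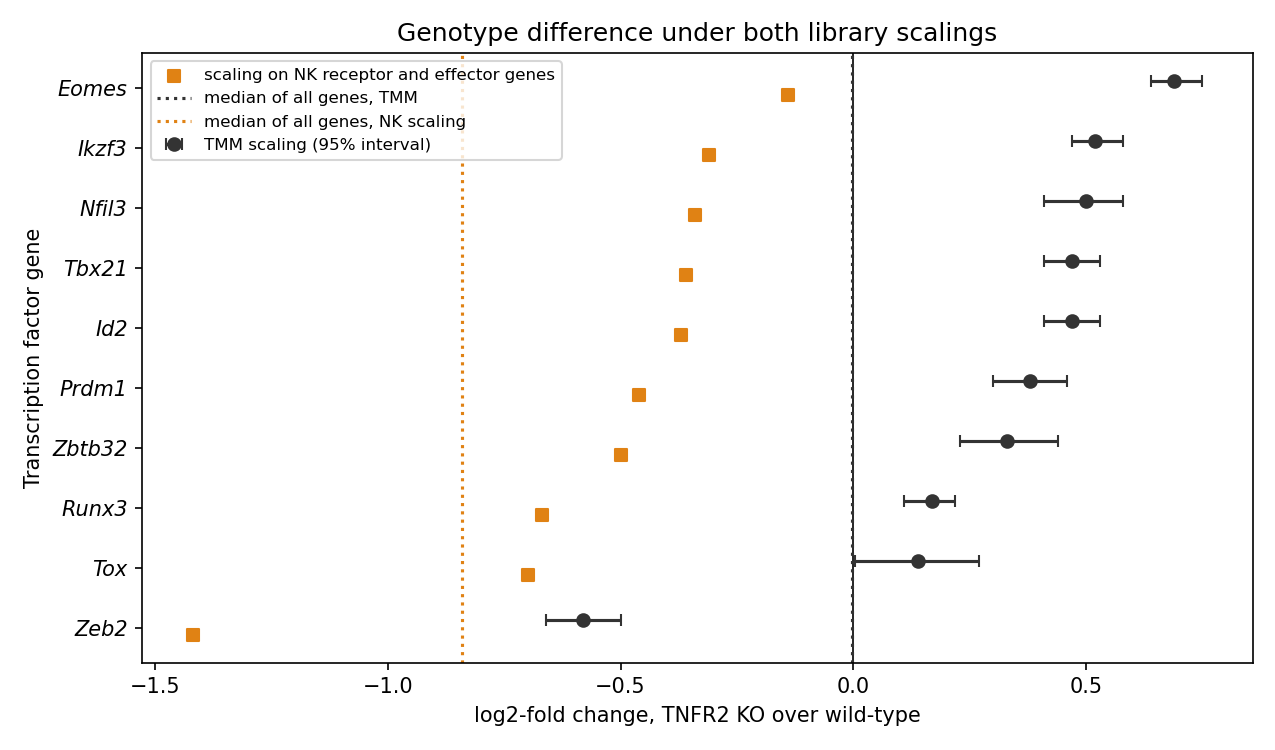
Log2-fold change between the genotypes (KO over wild-type) for each gene, with TMM scaling (black circles, bars give the 95% interval) and with scaling on 24 NK receptor and effector genes (orange squares), and dotted lines at the median of all genes under each. The 9 genes other than Zeb2 sit right of 0 under TMM and left of 0 under the NK scaling, and Zeb2 sits left of the all-gene median under both.

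Of the T-box pair, Eomes showed the larger difference. Its level was 220.0 and 219.8 CPM in wild-type cells, and 355.6 and 354.5 CPM in cells without TNFR2. Both TNFR2 KO values lay well above both wild-type values, with a log2-fold change of 0.69 (SE 0.0254, adjusted p = 3.06e-10 by edgeR). Tbx21 measured 237.4 and 235.1 CPM in wild-type, rising to 324.2 and 330.7 CPM (log2-fold change 0.47, SE 0.0262, adjusted p = 1.67e-08 by edgeR). The ratio of Eomes to Tbx21 counts within a library, which library scaling does not alter, was -0.11 and -0.10 on the log2 scale in wild-type and 0.13 and 0.10 in TNFR2 KO. Tbx21 thus had more counts than Eomes in both wild-type libraries and fewer in both TNFR2 KO libraries. These counts are not adjusted for length. Divided by transcript length, Tbx21 stood above Eomes in both genotypes, with the longest and with the median transcript. The shift in the count ratio was 1.16-fold, and it was 0.20 to 0.24 on the log2 scale with each library left out in turn. Eomes spans chr9:118478212-118486132 on the plus strand and Tbx21 chr11:97098071-97115331 on the minus strand (GENCODE release M21 on GRCm38). The exons of Eomes share 118 bases with those of the antisense gene Gm33460, which amount to 2.84% of its exonic bases, and whether the authors' assignment used strand is not given, so antisense reads cannot be told apart.

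Among the terminal maturation factors, Zeb2 went the other way. Its 88.9 and 87.6 CPM in wild-type dropped to 59.0 and 58.9 CPM. Both wild-type values were higher than both KO values, and the log2-fold change was -0.58 (SE 0.0378, adjusted p = 7.08e-08 in edgeR's test). Zeb2 is also expressed in macrophages and monocytes, whose 25 markers summed to 7.36 times more in wild-type, with all 24 tested lower in TNFR2 KO, and their part in this result was not tested. Prdm1 rose from 66.5 and 67.2 CPM to 87.4 and 86.5 CPM (log2-fold change 0.38, SE 0.0370, adjusted p = 3.21e-06). Ikzf3 rose from 293.9 and 289.0 CPM to 420.2 and 415.9 CPM (log2-fold change 0.52, SE 0.0251, adjusted p = 4.12e-09). Neither gene had overlapping groups. Macrophages are known to express Prdm1 as well, and their part in its value was not tested. The Zeb2 gene, chr2:44983632-45117395 on the minus strand, has 29 annotated transcripts and shares 653 exonic bases, 3.27% of its total, with the antisense gene Zeb2os.

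Set against Zeb2 within each library, every other factor was relatively higher in TNFR2 KO. The log2 ratio of Tbx21 to Zeb2 went from 1.42 in both wild-type libraries to 2.46 and 2.49 in TNFR2 KO, a 2.07-fold shift. Eomes to Zeb2 went from 1.31 and 1.33 to 2.59 in both, 2.42-fold, the widest shift of the 45 pairs of members. Prdm1 to Zeb2 went from -0.42 and -0.38 in wild-type to 0.57 and 0.55 in TNFR2 KO, so that Zeb2 had the higher count of the 2 in wild-type and the lower in TNFR2 KO. Counts are not adjusted for length, and per kb their order was the same in both genotypes. Prdm1 was above Zeb2 with the longest transcript and below it with the median transcript length. Over all pairs, 40 of 45 (88.9%) did not overlap between the genotypes, against 73.9% of all pairs of genes tested. The 5 pairs that overlapped, named after their values were seen, were Tbx21 to Id2, Nfil3 to Id2, Ikzf3 to Nfil3, Prdm1 to Zbtb32 and Runx3 to Tox. In these the factors kept nearly the same ratio, for example 0.47 and 0.55 against 0.54 and 0.58 for Prdm1 to Zbtb32. Other pairs shifted as little without overlapping, such as Nfil3 to Tbx21 by 0.03 and Ikzf3 to Tbx21 by 0.05.

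**Figure D3:**
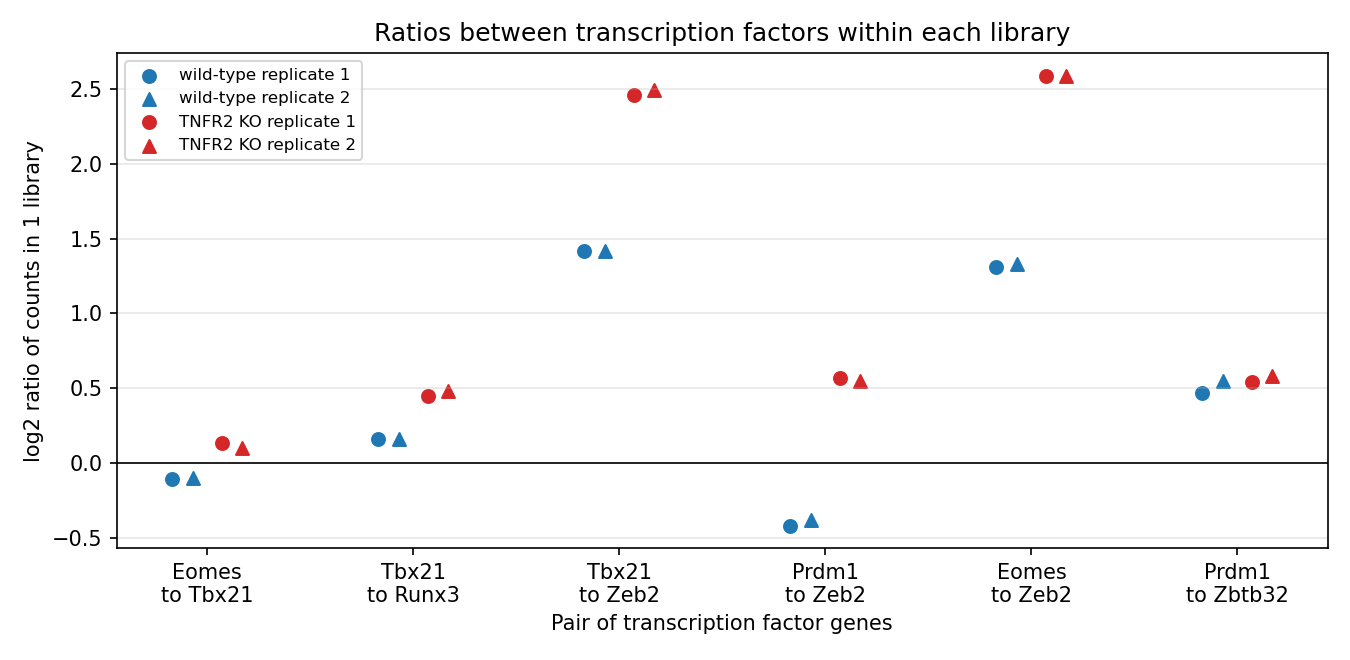
Log2 ratio of the counts of 2 transcription factor genes within each library, for 6 pairs, in the 2 wild-type (blue) and 2 TNFR2 KO (red) libraries. The 3 pairs with Zeb2 as denominator are separated most, by 0.96 to 1.27, Eomes to Tbx21 crosses 0, and Prdm1 to Zbtb32 overlaps. Counts are not adjusted for length, so the side of 0 on which a pair lies does not compare levels.

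The factors needed for NK cells to develop from progenitors, Nfil3, Id2 and Tox, divided. Nfil3 measured 57.3 and 58.7 CPM in wild-type, moving to 81.0 and 82.8 CPM (log2-fold change 0.50, SE 0.0393, adjusted p = 4.63e-07 in edgeR's test). Id2 had the highest CPM of the members, not adjusted for length, at 488.8 and 508.7 CPM in wild-type, moving to 697.1 and 682.7 CPM (log2-fold change 0.47, SE 0.0265, adjusted p = 1.92e-08). Both genes were higher in each TNFR2 KO library than in either wild-type library. Tox, with the lowest CPM of the members, measured 23.6 and 25.3 CPM in wild-type, then 26.8 CPM in both libraries lacking TNFR2. The groups did not overlap, as was so for 36.4% of genes in the higher direction, but the log2-fold change of 0.14 had an adjusted p of 0.0808 in edgeR's test and a 95% interval from 0.00409 to 0.27. Leaving out single libraries gave 0.09 to 0.19. The exons of Tox share 260 bases, 3.42% of its exonic bases, with the antisense gene Gm11802. T cells also express Tox, and T cell genes were measured in all libraries, at slightly higher sums in wild-type, with 7 of 11 lower and 2 higher in TNFR2 KO, and their part in the Tox value was not tested.

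Runx3 measured 212.6 and 210.8 CPM in wild-type, moving to 238.1 and 236.8 CPM, and its log2-fold change of 0.17 was the smallest among the genes that passed (SE 0.0266, adjusted p = 0.000231 in edgeR's test). Relative to Tbx21 in the same library Runx3 was lower in TNFR2 KO, as the log2 ratio of Tbx21 to Runx3 rose from 0.16 in both wild-type libraries to 0.45 and 0.48. Cbfb, which encodes the binding partner of the RUNX proteins and is named here after its values were seen, measured 254.9 and 256.9 CPM in wild-type, then 275.7 and 243.9 CPM, with overlapping groups and a log2-fold change of 0.02 (adjusted p = 0.70). Runx3 lies at chr4:135120652-135177990 on the plus strand, about 10 megabases from Tnfrsf1b on the same chromosome, and Tox lies 138 megabases from it. An effect of the chromosome around the targeted gene cannot be told apart from the genotype in this design. Zbtb32 measured 47.9 and 45.8 CPM in wild-type, moving to 60.3 and 57.8 CPM (log2-fold change 0.33, SE 0.0465, adjusted p = 7.22e-05).

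The log2 differences of KO over wild-type in pools 1 and 2 were 0.69 in both for Eomes, 0.45 and 0.49 for Tbx21, -0.59 and -0.57 for Zeb2, 0.51 and 0.42 for Id2, and 0.19 and 0.09 for Tox. For the other members they were 0.16 to 0.52 in pool 1 and 0.17 to 0.53 in pool 2.

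Levels can be compared between the genes only per length. Divided by the longest annotated transcript, Id2 was highest, at 253.3 (wild-type) and 350.4 (KO) CPM per kb, followed by Tbx21 at 95 and 131.6 CPM per kb. In wild-type the order continued with Ikzf3 (63.3), Eomes (61.8), Runx3 (54.5), Nfil3 (28.6), Zbtb32 (26.4), Prdm1 (12.7), Zeb2 (9.68) and Tox (6.16 CPM per kb). In TNFR2 KO, Eomes (99.7 CPM per kb) passed Ikzf3 (90.7), and Tox (6.77) passed Zeb2 (6.46). Neighbours in both orders did not overlap between libraries of 1 genotype, but the length taken for a gene moves its place far more than the libraries do, since with the median transcript length Runx3 came first.

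The other transcription factors of NK and ILC development were mixed. Of 43 such genes, all tested, 15 were higher, 11 were lower and 17 did not pass in edgeR's test under TMM. Over all genes tested 24.2% were higher and 26.2% lower, and 36.1% and 22.8% among those with a mean of at least 20 CPM. The median log2-fold change of the 43 was 0.03. With scaling on NK genes 0 were higher and 40 lower, against 0.912% and 87.8% of all genes tested. The higher genes with the smallest adjusted p were Irf8, which acts in NK cells during MCMV infection and in myeloid cells (log2-fold change 0.60, from 391.5 ± 7.58 to 592.9 ± 4.95 CPM, SD, n = 2), Stat4, which carries the IL-12 signal (0.51), Smad3 of the TGF-beta pathway (0.47), Klf2, a factor of trafficking and quiescence (0.44), and Ets1 (0.29). Lower genes included Maf (-0.57), Tcf7, which encodes TCF-1 of early NK cells and T cells (-0.72), Batf3, known from dendritic cells (-2.67), and Ikzf2, which encodes Helios (-1.24). Batf3 and Ikzf2 were the only genes of this list past the stricter rule, both under 20 CPM, with Batf3 at 6.62 ± 0.605 CPM in wild-type, then 1.02 ± 0.344 CPM (SD, n = 2). The summed dendritic cell or class II genes were also 11.5 times higher in wild-type, a sum made up mostly of class II genes such as Cd74. Of the 10 genes, 6 were lower and 4 did not pass (Flt3, Zbtb46, Xcr1 and Siglech). The part of these cells in the Batf3 value was not tested.

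All 12 genes that mark mature NK cells were higher in TNFR2 KO under TMM, with a median log2-fold change of 0.81, and 4 were higher and 5 lower with scaling on NK genes. The granzyme genes Gzma (1.08) and Gzmb (0.75) and the integrin gene Itgax (1.11) had the smallest adjusted p among them. S1pr5, a receptor for exit into blood that T-bet and Zeb2 are known to promote, was named after its values were seen and went from 47.4 and 51.3 CPM to 102.2 and 104.7 CPM, opposite to Zeb2. Klrg1 and Cx3cr1, named likewise, had log2-fold changes of 0.78 and 0.90. The 10 immature NK genes split, with 5 higher, led by Thy1 (0.38), Cd27 (0.39) and Ctla2a (0.23), and 5 lower, led by Emb (-1.23), Kit (-2.17) and Ltb (-1.16). All 10 were lower with scaling on NK genes, as were 87.8% of all genes tested. Kit is also a gene of mast cells and progenitors, so its fall ran beside that of the mast cell or basophil list, with all 9 genes lower, and their part was not tested. Of 8 ILC1 genes, 1 was higher, Itga1 (0.88), and 5 were lower, among them Inpp4b (-0.83), Tmem176b (-2.05) and Cd200r1 (-0.70), with summed levels of 360.4 to 361.4 CPM in the wild-type pair but 329.6 to 335.8 CPM in the KO pair. Myeloid genes were lower in TNFR2 KO too, and the part of other cell types in these values was not tested.

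**Figure D4:**
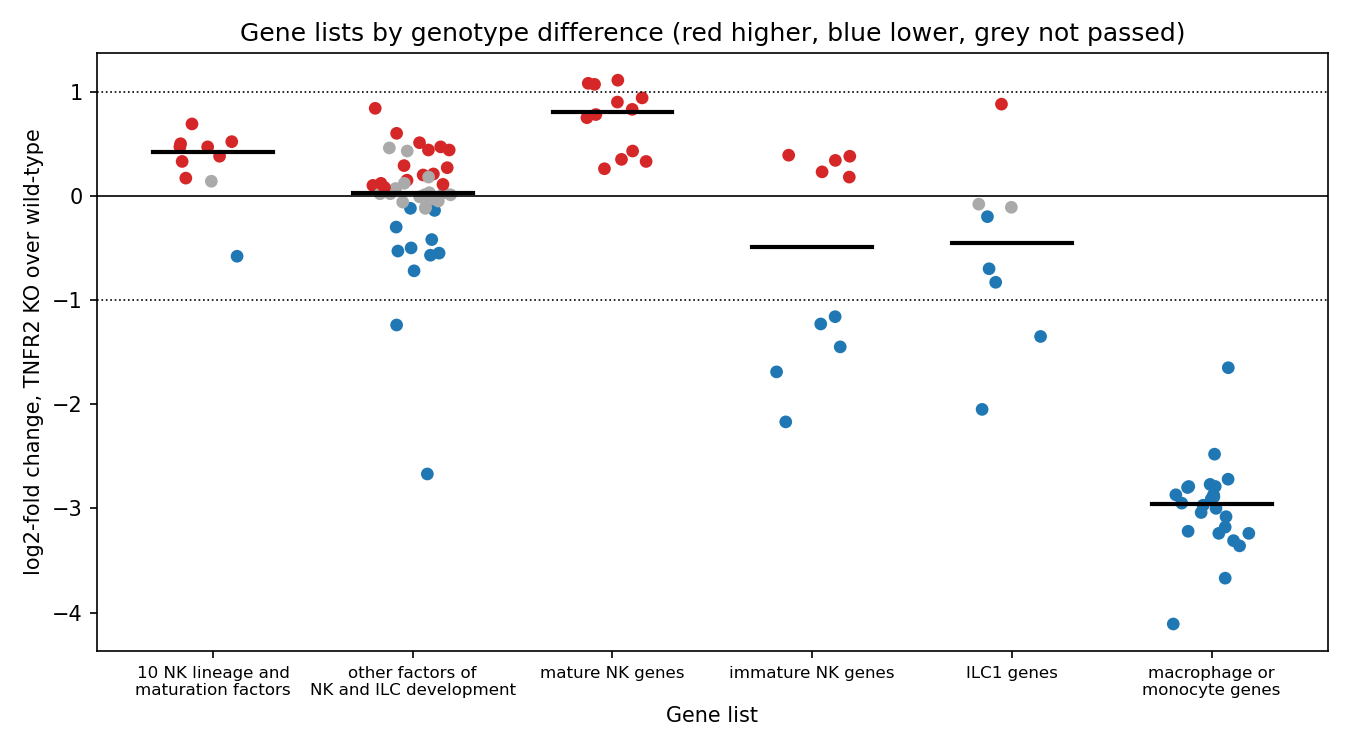
Log2-fold change between the genotypes (KO over wild-type) under TMM for each tested gene of 6 lists (points, red higher, blue lower and grey not passed at an adjusted p under 0.05), with each list's median as a bar and dotted lines at 1 and -1. The 10 transcription factors have a median of 0.42, between the mature NK genes at 0.81 and the other factors at 0.03, and scaling on NK genes would move all points down together, taking the median of all genes to -0.84.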

How the data were processed

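Poly-A RNA from 2 wild-type and 2 TNFR2 KO libraries was sequenced by the authors, who trimmed the reads with Trimmomatic (v.1.4), assigned them to mm10 transcripts with Kallisto (v.0.46.1; tools and build also in the submitters' processing notes) and collapsed them to genes with Tximport. The authors deposited the estimated counts (expected counts) per gene symbol, unscaled; the transcript annotation and strand setting are not given in the sources used here. Of the values, 23.7% were not whole, and counts were rounded. A row without a gene name, 0.0559% to 0.0728% of each library, was left out.

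Counts were scaled with TMM and tested across 13822 genes kept by filterByExpr, with genotype as the only term, by edgeR's quasi-likelihood test (edgeR 4.0.16, R 4.3.3). DESeq2 1.42.0 was an alternative. The steps were tested on simulated data with few genes changed, equally in both directions, so this could not test the choice of scaling. The smallest count of a member in any library was 859. Averaged over all genes tested, duplicates differed by more than counting noise (mean chi-square per gene 3.29 in wild-type and 3.49 in TNFR2 KO). This was not computed for the members alone. Same-numbered libraries share a pool of spleens per the labels, which pairs them; the correlation of their deviations was 0.0243. Ratios used counts plus 0.5. Positions, lengths and overlaps came from GENCODE M21 on GRCm38, and promoter windows from RefSeq on GRCm38.p6. The 24 scaling genes and all lists were hand-written, and members and lists were chosen with earlier results of these data known. Named were all members, Tnfrsf1b, Klra8, the 5 (other factors) or 3 (NK and ILC1 lists) genes of lowest adjusted p on either side, and the 2 most abundant of each other list. A gene that this rule names among the other factors is not reported here. Alternatives were 4 other scalings, DESeq2, 2 other filters, the replicate block and each library left out in turn. Plots were drawn with matplotlib 3.10.9.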

Additional observations from a re-analysis of the deposited data

How the results depend on the processing

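Apart from scaling on NK genes, the log2-fold changes of the 10 transcription factors kept their sign, and 9 of them their adjusted p under 0.05, under library size alone, upper-quartile scaling, size factors of DESeq2, the DESeq2 test, both other filters, the replicate block and each library left out. The ranges were 0.63 to 0.70 for Eomes, 0.41 to 0.50 for Tbx21, -0.64 to -0.56 for Zeb2, 0.10 to 0.18 for Runx3 and 0.07 to 0.19 for Tox, whose adjusted p ran from 0.0593 to 0.349. The replicate block, which pairs the libraries of a pool, left 8 members higher and 1 lower, called 1830 genes past both thresholds against 1842, and changed no call of a member. Other scalings of whole libraries shift all genes together, so only values near 0 change side.

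With scaling on NK genes the log2-fold changes turned to -0.36 for Tbx21, -0.14 for Eomes, -0.46 for Prdm1, -0.34 for Nfil3, -0.37 for Id2, -0.70 for Tox, -0.67 for Runx3, -0.31 for Ikzf3 and -0.50 for Zbtb32, and to -0.24 for Irf8, -0.32 for Stat4, -0.37 for Smad3, -0.39 for Klf2, -0.54 for Ets1, -0.08 for Gzmb, -0.46 for Thy1, -0.45 for Cd27 and -0.60 for Ctla2a. Members higher and lower were then 0 and 10, with 1 (Zeb2) past both thresholds. The other transcription factors were 0 and 40, mature NK genes 4 and 5, immature NK genes 0 and 10, and ILC1 genes 0 higher. Over all genes 126 were higher, 12136 lower and 4288 past both thresholds. The filter at a mean of 10 CPM, which tests fewer genes, gave 9 other factors higher, 2 immature NK genes lower and 478 genes past both thresholds.

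With the median transcript length, wild-type levels per kb were 76.7 for Eomes, 50.1 for Zeb2, 20.4 for Prdm1, 392.7 for Id2, 10.7 for Tox, 517.0 for Runx3, 128.9 for Ikzf3 and 54.9 for Zbtb32. With library size alone, the log2 ratio of summed markers was -0.18 for ILC1, 0.85 for NK, -2.94 for macrophage, -3.62 for neutrophil, -5.56 for mast cell, -3.59 for dendritic cell and -0.18 for T cell genes.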
